A study of Danio rerio with 15 samples.

Results

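A set of 5 germline genes was followed through depletion and recovery of the adult zebrafish testis: ddx4 (vasa, ENSDARG00000014373), dazl (ENSDARG00000036214), piwil1 (ENSDARG00000041699), piwil2 (ENSDARG00000062601) and nanos3 (ENSDARG00000068255). They were chosen by identifier as genes of the germ plasm and of the piRNA pathway, and are 5 of the 33752 genes counted. Messenger RNA of whole testes was sequenced from adult wild-type fish (Danio rerio) in 3 groups. The sample names call them Control, Depletion and Recovery, and they are written here as control, depleted and recovering. All groups share age class, genotype and tissue, and the labels give neither the way of depletion nor the time of recovery. The design names 5 biological replicates per group, of which 4 control (numbers 1, 3, 4 and 5), 5 depleted and 5 recovering testes were used; control replicate 2 is not analysed here.

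Germ plasm is the cytoplasm, rich in RNA and protein granules, that marks out germ cells in zebrafish embryos, and related granules persist around the nucleus of germ cells in the adult gonad. Several of its proteins serve the piRNA pathway, in which Piwi proteins loaded with small piRNAs recognise and silence transposons. These genes are known as germ cell genes in the zebrafish gonad, so their share of the RNA of a whole testis depends on how much germ cell RNA it holds.

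Libraries held from 8617589 to 48646941 counts in control, 8123444 to 10059498 in depleted and 8661834 to 25035915 in recovering testes. Values are CPM, the usual measure of counts relative to library size, with TMM scaling of those sizes, and compare 1 gene between libraries, not genes with each other, since gene lengths were not used. gsdf, a Sertoli cell growth factor of the fish gonad, reached at least 572 CPM in every control testis. Of the listed genes known from oocytes, figla, a transcription factor, was at 0 counts in every control and depleted library. The others were detected in control testes, at means of 23.1 CPM for buc, 12.9 for zp3b and 3.33 for bmp15. zar1 stood at 2.68, gdf9 at 1.29 and zp2.1 at 0.130 CPM. These markers alone therefore do not settle the tissue. All 5 genes passed the filter on low counts among the 21277 genes tested. For nanos3 that rested on few reads, at most 58 in a library, and on control and recovering libraries only. Its depleted libraries, with at most 6 counts, were too low to count toward the filter.

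Control testes were close to one another in ddx4, dazl, piwil1 and piwil2, and depleted testes were very uneven in these 4 genes. ddx4 encodes Vasa, an RNA helicase of germ granules. It stood at 1052, 1085, 967 and 1100.5 CPM in control replicates 1, 3, 4 and 5. In depleted replicates 1 to 5 it stood at 692, 654, 27.2, 107 and 1.92 CPM. In recovering replicates 1 to 5 it stood at 1059, 1627, 1733, 997 and 926 CPM. Every depleted testis lay below every control and every recovering testis, but depleted replicates 1 and 2 still held 65.9% and 62.2% of the control mean, against 0.183% in replicate 5. That replicate had 14 ddx4 counts in all, an interval of 1.05 to 3.22 CPM (Clopper-Pearson, 95%, counting error only).

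dazl encodes an RNA-binding protein of germ cells that acts on the translation of their messages. In control replicates 1, 3, 4 and 5 it stood at 461, 449.9, 451 and 481 CPM. In depleted replicates 1 to 5 it stood at 168, 142, 2.17, 18.9 and 0.274 CPM. In recovering replicates 1 to 5 it stood at 342, 470.0, 468, 302 and 302 CPM. Depleted testes again lay below both other groups. Of the recovering testes, replicates 2 and 3 reached the control range and the other 3 lay below every control testis.

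The Piwi proteins of zebrafish, Ziwi (piwil1) and Zili (piwil2), bind piRNAs and are required for germ cells. In control replicates 1, 3, 4 and 5 piwil1 stood at 2419, 2401, 2209 and 2326 CPM. In depleted replicates 1 to 5 it stood at 989, 1089.9, 15.5, 124 and 2.33 CPM. In recovering replicates 1 to 5 it stood at 1928, 2387, 2737, 1581 and 1792 CPM. As with ddx4, all depleted values lay below all others, and replicates 1 and 2 kept the most.

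For piwil2 the control values were 331, 346, 326 and 378 CPM in replicates 1, 3, 4 and 5. The depleted values were 159.6, 206, 2.17, 28.7 and 0.137 CPM in replicates 1 to 5. The recovering values were 387, 561, 486, 301 and 307 CPM in replicates 1 to 5. Depleted replicate 5 held 1 piwil2 count, and recovering testes lay on both sides of the control range.

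nanos3 encodes a zinc-finger repressor of translation whose RNA is placed in the germ plasm of the zebrafish embryo, where it acts in primordial germ cells. It was near the limit of detection in these testes. The control libraries held 6, 11, 20 and 58 counts in replicates 1, 3, 4 and 5. The depleted libraries held 6, 3, 1, 0 and 1 counts in replicates 1 to 5. The recovering libraries held 8, 24, 12, 6 and 11 counts in replicates 1 to 5. As levels these were 1.09 ± 0.370 CPM (SD, n = 4, control), 0.278 ± 0.287 CPM (SD, n = 5, depleted) and 0.849 ± 0.437 CPM (SD, n = 5, recovering). Groups overlapped, since depleted replicate 1, at 0.709 CPM, lay above control replicate 1, at 0.625 CPM. In depleted replicate 4 the 0 counts allow up to 0.405 CPM, the level of 3 counts in that library.

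**Figure D1:**
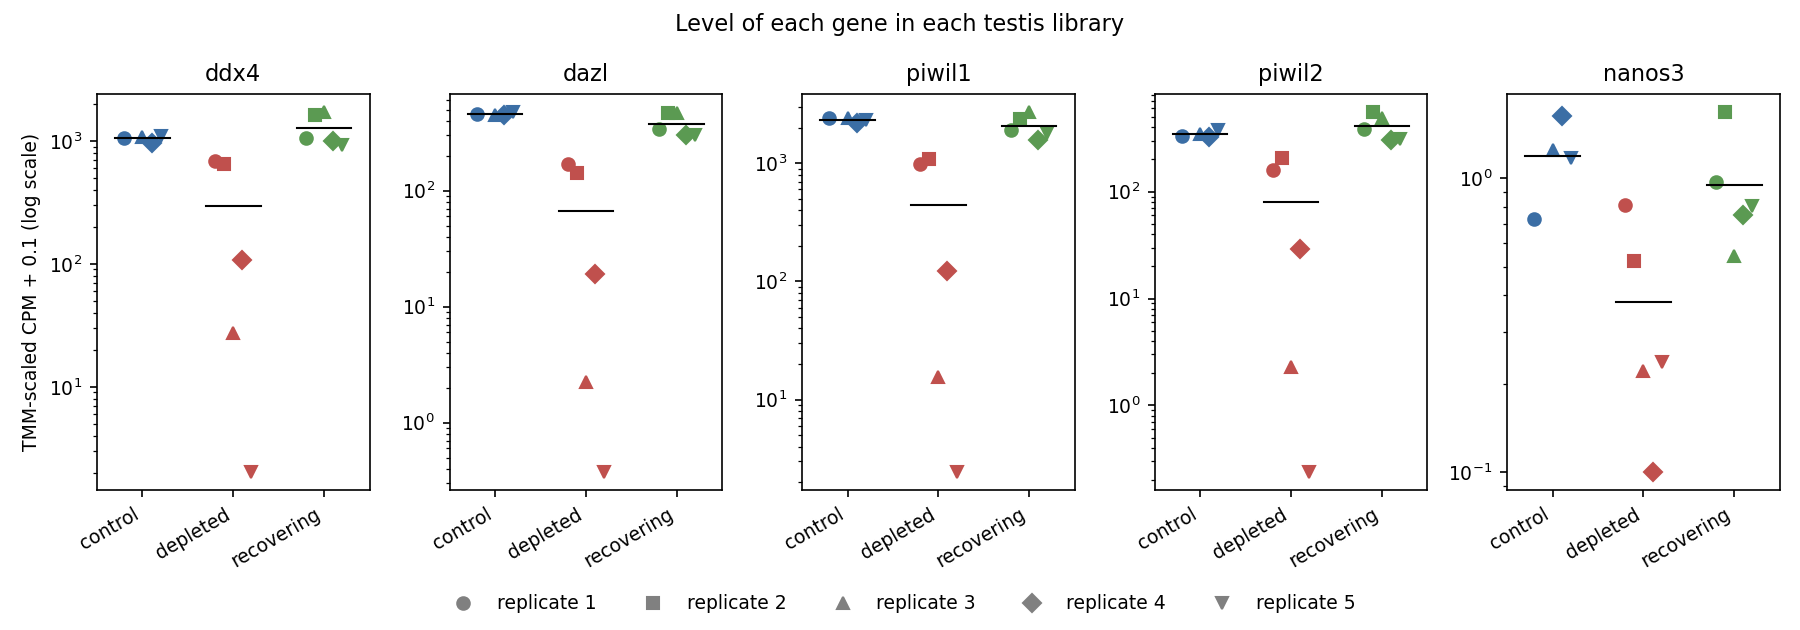
TMM-scaled CPM plus 0.1, on a log axis, of the 5 germline genes in each library; symbols give the replicate and black lines the group means. Depleted testes spread from 692 to 1.92 CPM for ddx4, whereas control testes lie between 967 and 1100.5 CPM; nanos3 stays under 2 CPM throughout.

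The spread among depleted testes was the leading feature of ddx4, dazl, piwil1 and piwil2. The highest depleted value was 361 times the lowest for ddx4 and 468 times for piwil1. For dazl and piwil2 no such ratio is given, since replicate 5 held 2 counts and 1 count of them. On the log2 scale (CPM + 0.1) the SD of ddx4 over depleted testes was 3.52, against 0.61 for the median gene tested, and 99.3% of tested genes had a smaller SD. For dazl, piwil1 and piwil2 the shares of genes with a smaller SD were 99.6%, 99.6% and 99.8%. In control testes the order was the opposite: the SD of ddx4 was 0.08 against 0.27 for the median gene, and between 1.25% and 9.91% of genes varied less than these 4. Recovering testes lay in the middle, where 41.7% to 57.1% of genes varied less. These shares are over tested genes of all levels and were not matched for level. They therefore do not show a trait of these 4 genes alone. Abundant genes of other germ cell lists also ranged widely over depleted testes. sycp1 ran from 13.2 to 1024 CPM, smc1b from 0.685 to 477 CPM and tdrd6 from 2.06 to 604 CPM. For nanos3 the shares of genes that varied less were 76.3% in control and 77% in depleted testes. It held at most 6 counts in a depleted library, and the added 0.1 CPM limited the SD it could reach. On this scale a spread like that of the abundant genes could therefore not be seen in it. Without logs, the SD over depleted testes was 103% of the mean for nanos3 and 117% for ddx4. These percentages are not comparable, since counting error is a larger part of the spread of nanos3, at so few counts.

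The 4 abundant genes moved together over the whole set of testes. Over the 14 libraries, which share depth and scaling within each library, Pearson's r of log2 CPM between pairs of them ranged from 0.988 (ddx4 with dazl) to 0.999 (dazl with piwil1). With nanos3 the 4 correlations lay between 0.731 and 0.781. Most of the range behind these values is that of depleted testes, where ddx4 ran from 1.92 to 692 CPM. In control testes it ran only from 967 to 1100.5 CPM, so the correlations do not describe control testes alone. Depleted replicates 1 and 2 held the highest values of each abundant gene, followed by replicate 4, replicate 3 and replicate 5.

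In depleted against control testes nanos3 was the only one of the 5 genes to pass the edgeR test, and leaving out most single libraries ended that call. Depleted testes were lower than controls in all 5 genes, with log2 fold changes from -2.80 to -1.83 and a median of -2.12, while the median of all tested genes was 0.03. nanos3 fell by 1.93 on the log2 scale (SE 0.71, edgeR adjusted p = 0.0400). It no longer passed when any one of control replicates 3, 4 and 5 or depleted replicates 3, 4 and 5 was left out (edgeR adjusted p from 0.0515 to 0.1004). nanos3 also passed the filter on low counts only through control and recovering libraries, so its call was not taken as support for a fall. Without that filter its edgeR adjusted p was 0.0539. The background was high, since 59.7% of all tested genes were called, 31.7% higher and 27.9% lower in depleted testes.

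The abundant genes did not pass, with wide errors. The estimate for ddx4 on the log2 scale was -1.83 (SE 1.17, edgeR adjusted p = 0.196), a difference of the means of 1051 ± 59.5 CPM (SD, n = 4, control) and 296 ± 346 CPM (SD, n = 5, depleted). For dazl it was -2.80 (SE 1.30, edgeR adjusted p = 0.0858), for piwil1 -2.40 (SE 1.30, edgeR adjusted p = 0.134) and for piwil2 -2.12 (SE 1.31, edgeR adjusted p = 0.180). The groups nonetheless did not overlap for these 4 genes, as for 27.8% of all tested genes in this direction. limma-voom with sample quality weights, which averages on the log scale, called all 5, with -3.91 for ddx4 (limma adjusted p = 0.00465) and -5.45 for dazl (limma adjusted p = 0.000747). DESeq2 called dazl, piwil1 and nanos3. Of the 21277 tested genes, limma-voom called 14680 and DESeq2 14216 in either direction. CPM gives a share of each library. In whole testes, fewer germ cells, less of these RNAs per germ cell and more RNA of other cells cannot be told apart.

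All 5 genes were higher in recovering than in depleted testes, and none passed the edgeR test. The log2 fold changes were 2.1 for ddx4 (SE 1.09, edgeR adjusted p = 0.124), 2.51 for dazl (SE 1.18, adjusted p = 0.0948), 2.23 for piwil1 (SE 1.20, adjusted p = 0.134), 2.36 for piwil2 (SE 1.22, adjusted p = 0.121) and 1.55 for nanos3 (SE 0.70, adjusted p = 0.0853). At an unadjusted p under 0.05 the count was also 0, while 59.4% of all tested genes passed that mark. DESeq2 and limma-voom each called all 5 higher, while they called 6601 and 6691 of the 21277 tested genes higher. In the edgeR fit 50.2% of all tested genes were called, 23.2% higher and 27% lower. The groups did not overlap for the 4 abundant genes, as for 18.8% of all tested genes in this direction. Without depleted replicate 1, nanos3 passed at 2.27 (edgeR adjusted p = 0.0332).

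Recovering testes overlapped control testes in all 5 genes, and the estimates went both ways. On average they held 121% of the control mean of ddx4 and 118% of piwil2, but 81.8% of dazl, 89.2% of piwil1 and 77.9% of nanos3. The log2 fold changes were 0.27 for ddx4 (SE 0.20, edgeR adjusted p = 0.420), 0.24 for piwil2 (SE 0.19, adjusted p = 0.441), -0.29 for dazl (SE 0.16, adjusted p = 0.275), -0.17 for piwil1 (SE 0.17, adjusted p = 0.559) and -0.37 for nanos3 (SE 0.43, adjusted p = 0.613). The number of the 5 called was 0, also at an unadjusted p under 0.05 and by DESeq2 and limma-voom. DESeq2 gave nanos3 no adjusted p. Over all tested genes 5.23% were called, 3.49% higher and 1.74% lower, 26.8% had an unadjusted p under 0.05, and 12.5% had groups that did not overlap. The 3 comparisons share samples in pairs, so their estimates are not independent.

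**Figure D2:**
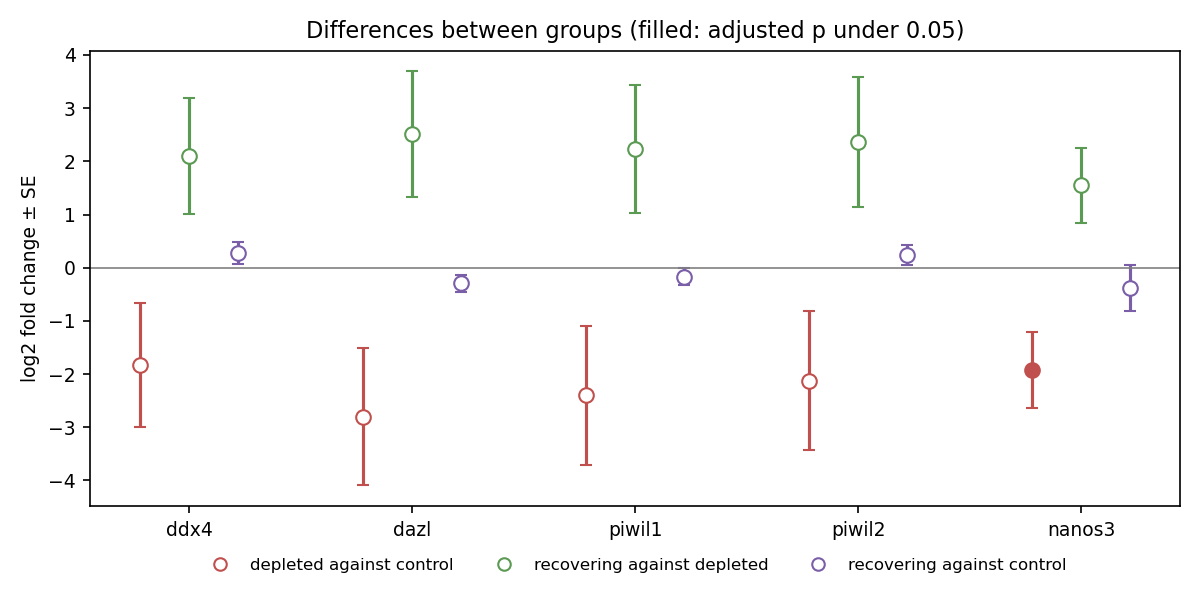
log2 fold change with its standard error (edgeR) for each of the 5 genes in the 3 comparisons; filled points passed an adjusted p of 0.05. Only nanos3 in depleted against control testes is filled, at -1.93, and the errors in the comparisons with depleted testes exceed those of recovering against control testes, for ddx4 1.17 and 1.09 against 0.20.

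Ratios within a library do not depend on scaling, and here the genes parted. dazl gave 43.9 ± 2.09 (SD, n = 4, control), 17.2 ± 6.40 (SD, n = 5, depleted) and 30.2 ± 2.37 (SD, n = 5, recovering) counts per 100 ddx4 counts. The control values were 43.8, 41.5, 46.6 and 43.7 in replicates 1, 3, 4 and 5. The depleted values were 24.3, 21.7, 7.96, 17.7 and 14.3 in replicates 1 to 5. The recovering values were 32.3, 28.9, 27.0, 30.3 and 32.6 in replicates 1 to 5. The 3 groups did not overlap, with recovering testes between the others. The value of depleted replicate 5 rests on 2 dazl and 14 ddx4 counts, with an interval of 1.58 to 62.2 (Clopper-Pearson, 95%) that spans all groups.

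The difference in mean log2 ratio of dazl to ddx4 was -1.39 in depleted against control, 0.85 in recovering against depleted and -0.54 in recovering against control testes. Each had an exact two-sided permutation p of 0.00794, the smallest these group sizes allow, and 0.0317 after Benjamini-Hochberg adjustment over the 12 comparisons of ratios to ddx4. A ratio to ddx4 that was lower in every depleted than in every control testis was found in 0.263% of the other tested genes (56 genes), and the same in recovering against control testes in 7.88%. Genes of low level could hardly be among the 56, since depleted replicate 5 held 14 ddx4 counts and 0.5 was added to each count. The lowest mean CPM among the 56 was 28.8. The share over all genes therefore does not show how unusual the ratio of dazl is. The opposite was common, as 48.5% of genes were higher relative to ddx4 in every depleted testis. The log2 ratio of the median gene was 3.75 higher in depleted than in control testes. In recovering against depleted testes, 3 genes were higher relative to ddx4 in every recovering testis, 0.0141% of those tested, with the same limit for genes of low level. They were dazl, muc5.1 and si:dkey-234d14.2, the last of these named after its values were seen, as was muc5.1.

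piwil1 gave 223 ± 8.48 (SD, n = 4, control), 121 ± 40.8 (SD, n = 5, depleted) and 168 ± 19.4 (SD, n = 5, recovering) counts per 100 ddx4 counts. The control range, 211 to 229.97, lay above the depleted range, 57.1 to 167, and the recovering range, 147 to 194. The mean log2 ratio differed by -0.97 in depleted against control and by -0.42 in recovering against control testes (exact permutation p = 0.0159 for each, adjusted 0.0381). Recovering and depleted testes overlapped, with a difference of 0.55 (exact permutation p = 0.0476, adjusted 0.0816). piwil1 is therefore also among the 56 genes named above.

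The ratio of piwil2 to ddx4 did not pass in any comparison after adjustment. It was 32.8 ± 1.41 (SD, n = 4, control), 19.3 ± 11.1 (SD, n = 5, depleted) and 32.5 ± 3.41 (SD, n = 5, recovering) counts per 100 ddx4 counts. Depleted replicate 2, at 31.5, reached the control range, while replicates 3 and 5 stood at 7.96 and 7.14 on 18 counts and 1 count. The mean log2 ratio differed by -0.90 in depleted against control (exact permutation p = 0.0635, adjusted 0.0952), by 0.88 in recovering against depleted (exact permutation p = 0.0317, adjusted 0.0635) and by -0.02 in recovering against control testes (exact permutation p = 0.825, adjusted 0.825). The ratio of nanos3 to ddx4 could not be resolved in depleted testes at this depth. Its depleted values ranged from 0 to 7.14 per 100, and the group differences had exact permutation p values from 0.159 to 0.397.

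Relative to dazl in place of ddx4, piwil1 was higher in depleted than in control testes by 0.42 on the log2 scale (exact permutation p = 0.0159, adjusted 0.0272). Likewise, piwil2 was higher in recovering than in control testes by 0.52 (exact permutation p = 0.00794, adjusted 0.0190). The difference for piwil2 relative to dazl in depleted against control testes was 0.48 (exact permutation p = 0.127, adjusted 0.152). These p values were adjusted over the 12 comparisons of ratios to dazl, apart from those to ddx4.

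**Figure D3:**
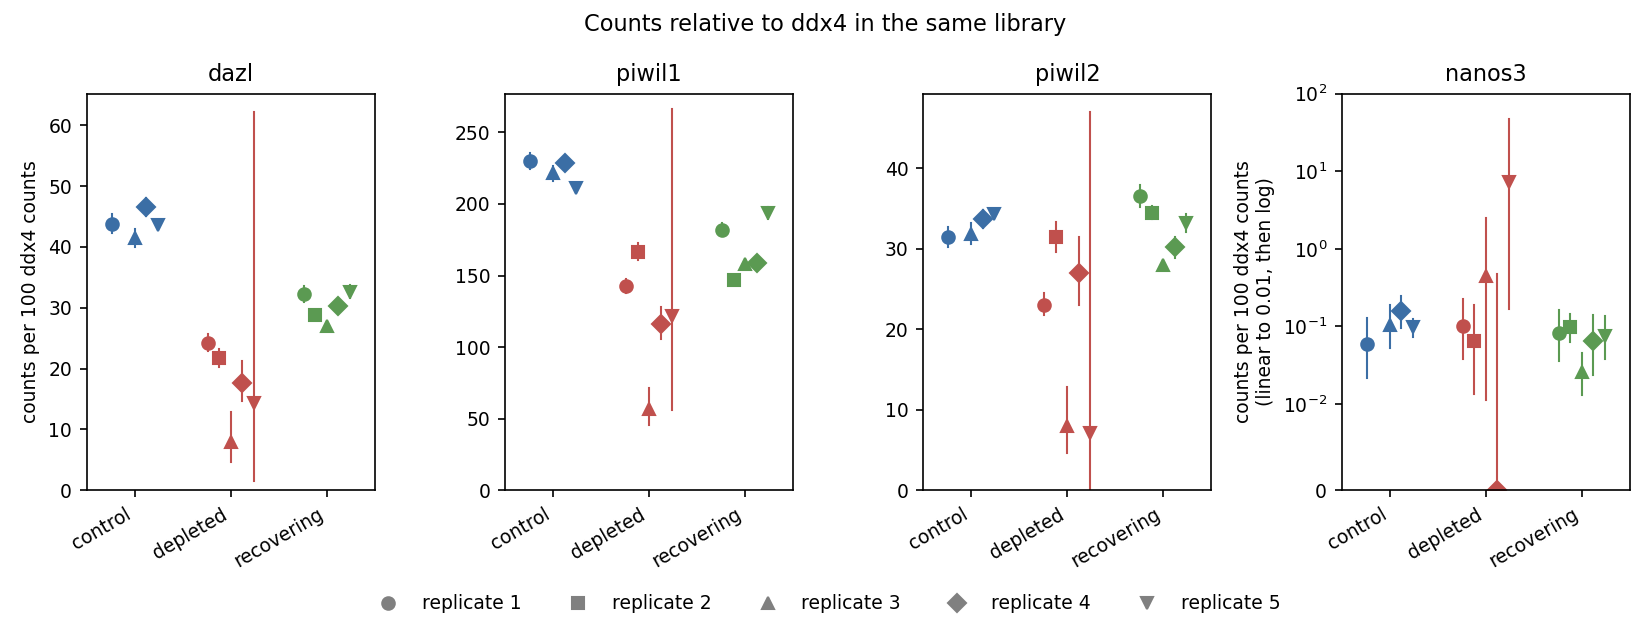
Counts of dazl, piwil1, piwil2 and nanos3 per 100 ddx4 counts in each library, with 95% Clopper-Pearson intervals as vertical lines and symbols for the replicate; the nanos3 axis is linear to 0.01 and then logarithmic. For dazl the control testes lie at 41.5 to 46.6, the recovering at 27.0 to 32.6 and the depleted at 7.96 to 24.3; the longest lines for dazl, piwil1 and piwil2 belong to depleted replicate 5, with 14 ddx4 counts.

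Other piRNA pathway genes had estimates of the same sign as the Piwi genes. Of a list of 20, 15 were matched and tested, and all 15 had estimates below 0 in depleted against control testes, with a median log2 fold change of -2.38 against 0.03 over all tested genes. The groups did not overlap for 14 of them, henmt1, the piRNA methyltransferase, being the exception, against 27.8% of all tested genes in this direction. Of the 15, 4 fell and 11 did not pass, a share close to the 27.9% of all tested genes called lower. The 4 were tdrd9, tdrd12 and tdrkh, which encode Tudor domain proteins, and gtsf1, which encodes a zinc-finger partner of Piwi proteins in mice. tdrkh stood at 209 ± 16.3 CPM (SD, n = 4, control) and 56.4 ± 48.9 CPM (SD, n = 5, depleted), and its estimate was -1.89 (SE 0.60, edgeR adjusted p = 0.0234). For gtsf1 it was -3.06 (SE 1.15, edgeR adjusted p = 0.0437), for tdrd9 -2.08 (SE 0.74, edgeR adjusted p = 0.0357) and for tdrd12 -2.77 (SE 1.0, edgeR adjusted p = 0.0376).

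The most abundant Tudor genes missed the threshold with similar or larger estimates. tdrd7a, at 1256 ± 226 CPM (SD, n = 4, control) and 143 ± 181 CPM (SD, n = 5, depleted), had -3.14 (SE 1.25, edgeR adjusted p = 0.0531). tdrd6 had -2.70 (SE 1.21, edgeR adjusted p = 0.0774) and tdrd1 -2.1 (SE 1.17, edgeR adjusted p = 0.141). The count of 4 called genes depended on the tool: it was 13 with DESeq2, 15 with limma-voom and 14 in 1 edgeR fit of all 14 samples. Those settings called 14216, 14680 and 14107 of the 21277 tested genes in either direction. The count of 4 also depended on single libraries, as it was 1 without any one control replicate or without depleted replicate 3, 0 without depleted replicate 4 and 12 without depleted replicate 2. Over all tested genes, leaving out 1 library gave 10479 to 14222 calls.

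In recovering against depleted testes all 15 had estimates above 0, with a median of 2.32. tdrd9, tdrd12 and tdrkh rose and 12 did not pass, where 23.2% of all tested genes were called higher. DESeq2 and limma-voom each called all 15, and 1 edgeR fit of all 14 samples called 13. Those settings called 6601, 6691 and 6099 of the 21277 tested genes higher. In tdrd9 the change was 2.17 (SE 0.71, edgeR adjusted p = 0.0287). The count of 3 was 12 without depleted replicate 2, 5 without depleted replicate 5, 0 without any one of depleted replicates 3 and 4 and recovering replicates 2 and 3, and 2 without recovering replicate 4 or 5. In recovering against control testes the edgeR count was 0 of 15 (DESeq2 also 0, limma-voom 1), with estimates of both signs and a median of -0.11.

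**Figure D4:**
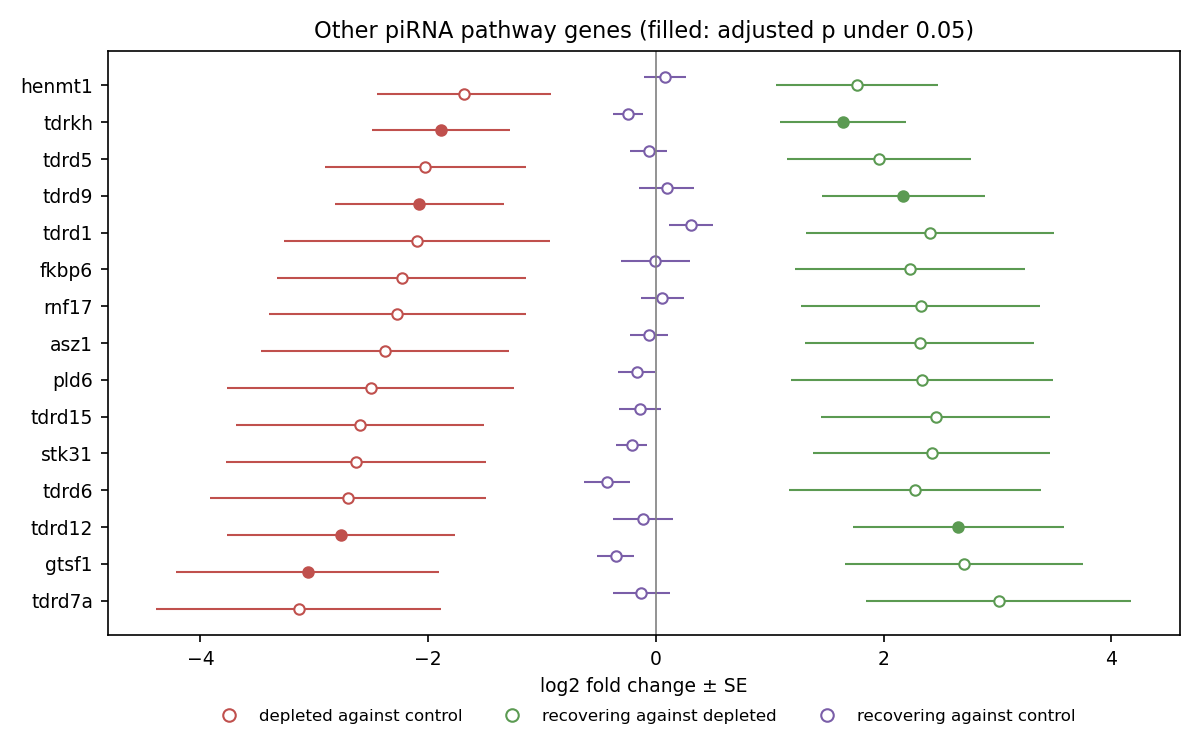
log2 fold change with its standard error (edgeR) for the 15 tested genes of the piRNA pathway list in the 3 comparisons; filled points passed an adjusted p of 0.05. All estimates lie below 0 in depleted against control and above 0 in recovering against depleted testes, and 4 and 3 of them are filled.

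Among germ plasm genes of the list, 11 of 12 were tested and 3 fell in depleted testes, where 27.9% of all tested genes were called lower. tdrd6 and tdrd7a are in this list and in the piRNA pathway list, so the lists are not independent. buc encodes Bucky ball, the organiser of germ plasm in the zebrafish egg, and stood at 23.1 ± 5.73 CPM (SD, n = 4, control) and 4.69 ± 3.60 CPM (SD, n = 5, depleted). It fell by 2.30 on the log2 scale (SE 0.52, edgeR adjusted p = 0.00511). zar1l fell by 2.20 (SE 0.68, edgeR adjusted p = 0.0200) and gra fell by 2.71 (SE 0.98, edgeR adjusted p = 0.0376). buc, zar1l and celf1 rose in recovering against depleted testes, buc by 2.03 (SE 0.47, edgeR adjusted p = 0.00761) and zar1l by 2.02 (SE 0.62, edgeR adjusted p = 0.0216). celf1 rose by only 0.46 (SE 0.16, edgeR adjusted p = 0.0334), with overlapping groups. In that comparison 23.2% of all tested genes were called higher. The count of 3 risen genes was 8 with DESeq2 and 7 with limma-voom, which called 6601 and 6691 of the 21277 tested genes higher. Leaving out 1 library gave 2 to 5 risen genes. The list's median was -2.20 in depleted against control testes. celf1, an RNA-binding protein made in many tissues, had an estimate of only -0.32 there (SE 0.14, edgeR adjusted p = 0.0702). Small estimates were also those of rgs14a (-0.16), zar1 (-0.46), hook2 (-0.51) and igf2bp3 (-0.52), not called in the main edgeR test. The other tested genes of the list ran from -3.14 to -2.20, so the median does not stand for the whole list. The count of 3 lower genes in depleted testes was 5 with DESeq2 size factors, 7 with total counts, 9 with the DESeq2 test and 7 with limma-voom. Over the 21277 tested genes those settings called 12857, 12973, 14216 and 14680 in either direction. The count of lower genes was 1 without control replicate 5, 6 without depleted replicate 2, and 2 or 3 without any one of the other control and depleted replicates.

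The Argonaute genes, relatives of the Piwi genes that serve microRNAs in many tissues, gave estimates of both signs. Of 3 tested, ago1 rose in depleted testes, with 1.44 ± 0.237 CPM (SD, n = 4, control) and 3.93 ± 1.88 CPM (SD, n = 5, depleted), by 1.44 on the log2 scale (SE 0.40, edgeR adjusted p = 0.0131). Of all tested genes, 31.7% were called higher there. ago2 stood at 70.9 ± 5.45 CPM (SD, n = 4, control) and 56.9 ± 17.1 CPM (SD, n = 5, depleted), with -0.32 (SE 0.23, edgeR adjusted p = 0.256). ago3a had -0.58 (edgeR adjusted p = 0.149) and fell when libraries were scaled by their totals.

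Genes of later germ cells were lower along with the 5 genes. Of 12 tested spermatocyte genes, 4 fell in depleted testes, sycp1 of the synaptonemal complex and the recombination genes spo11, msh4 and mei4, and the list's median was -2.69, where 27.9% of all tested genes were called lower. The count was 11 with DESeq2 and 12 with limma-voom, which called 14216 and 14680 of the 21277 tested genes in either direction. The count was 10 without depleted replicate 2, 1 without control replicate 5, 2 without any one of control replicates 1, 3 and 4 and depleted replicate 4, and 3 or 4 otherwise. The same 4 rose in recovering against depleted testes, where 23.2% of all tested genes were called higher. That count was 10 with DESeq2, 12 with limma-voom, 10 without depleted replicate 2 and 2 without any other single library. DESeq2 and limma-voom called 6601 and 6691 of the 21277 tested genes higher in that comparison. sycp1 stood at 2444 ± 252 CPM (SD, n = 4, control), 298 ± 432 CPM (SD, n = 5, depleted) and 1925 ± 338 CPM (SD, n = 5, recovering). Of 8 tested genes of spermatids and sperm, 6 fell, with a median of -3.02, among them tssk6, a kinase of spermatids, which fell by 4.96 (SE 1.02, edgeR adjusted p = 0.00327). One of them, spata4, was also lower in recovering than in control testes, at -0.58 on the log2 scale (SE 0.13, edgeR adjusted p = 0.0394). That call was lost without any one of control replicates 1, 3, 4 and 5 and recovering replicates 1, 2 and 4, and in 1 edgeR fit of all 14 samples. In recovering against control testes all 12 spermatocyte and all 8 spermatid estimates were below 0, with medians of -0.35 and -0.50. The groups did not overlap, with recovering testes lower, for 3 genes of each list (sycp2, spo11 and rad21l1, and spaca6, spata4 and spag6). Over all tested genes 12.5% did not overlap there, but in either direction, so this share is not like for like with counts of lower genes alone. Only 2 of 8 markers of undifferentiated spermatogonia were tested, pou5f3 and id4, each under 4 CPM in the group means, and neither was called in any comparison.

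By summed CPM the spermatocyte list followed the same order of depleted testes as piwil2. As a percent of the control mean it stood at 23.6% in depleted replicate 1, 43.6% in replicate 2, 1.34% in replicate 3, 1.70% in replicate 4 and 0.418% in replicate 5. The piRNA pathway list stood at 32.0%, 43.5%, 1.90%, 5.36% and 0.816% in the same order. ddx4 was at 10.1% in replicate 4, several times the spermatocyte share there.

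Most tested markers of somatic cells moved the other way, and their part in the results on the germline genes was not tested. Of 4 tested Sertoli cell genes, 3 rose in depleted testes (gsdf, fshr and inha), where 31.7% of all tested genes were called higher. The summed list ran from 813 to 1332 CPM in control, 1658 to 4226 CPM in depleted and 1095 to 2285 CPM in recovering testes. Of 7 Leydig cell genes, 6 rose, while hsd17b3 had -0.60 (SE 0.55, edgeR adjusted p = 0.354). The summed Leydig list ran from 707 to 1350.4 CPM in control and from 1073 to 13745 CPM in depleted testes. Its lowest depleted value, that of replicate 5, was 103% of the control mean. Of 5 leukocyte genes, 4 rose, and their sum ran from 57.7 to 219 CPM in control and from 404 to 2001 CPM in depleted testes. Both endothelial genes tested (cdh5 and tie1) and all 3 red blood cell genes rose, although hbaa2 did not pass with total counts. No gene of these 5 lists was at 0 counts in any library. The highest leukocyte sum was that of depleted replicate 5, the testis with the least ddx4.

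The germ cell genes also include some known from oocytes. zp3b, buc and bmp15 fell in depleted testes among 5 tested oocyte genes, where 27.9% of all tested genes were called lower. The other tested genes, zar1 at -0.46 (edgeR adjusted p = 0.573) and gdf9 at -0.55 (edgeR adjusted p = 0.613), were not called. buc and zar1 are also in the germ plasm list. figla and zp2.1 were too low to test, with zp2.1 at a mean of 0.130 CPM in control testes.

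**Figure D5:**
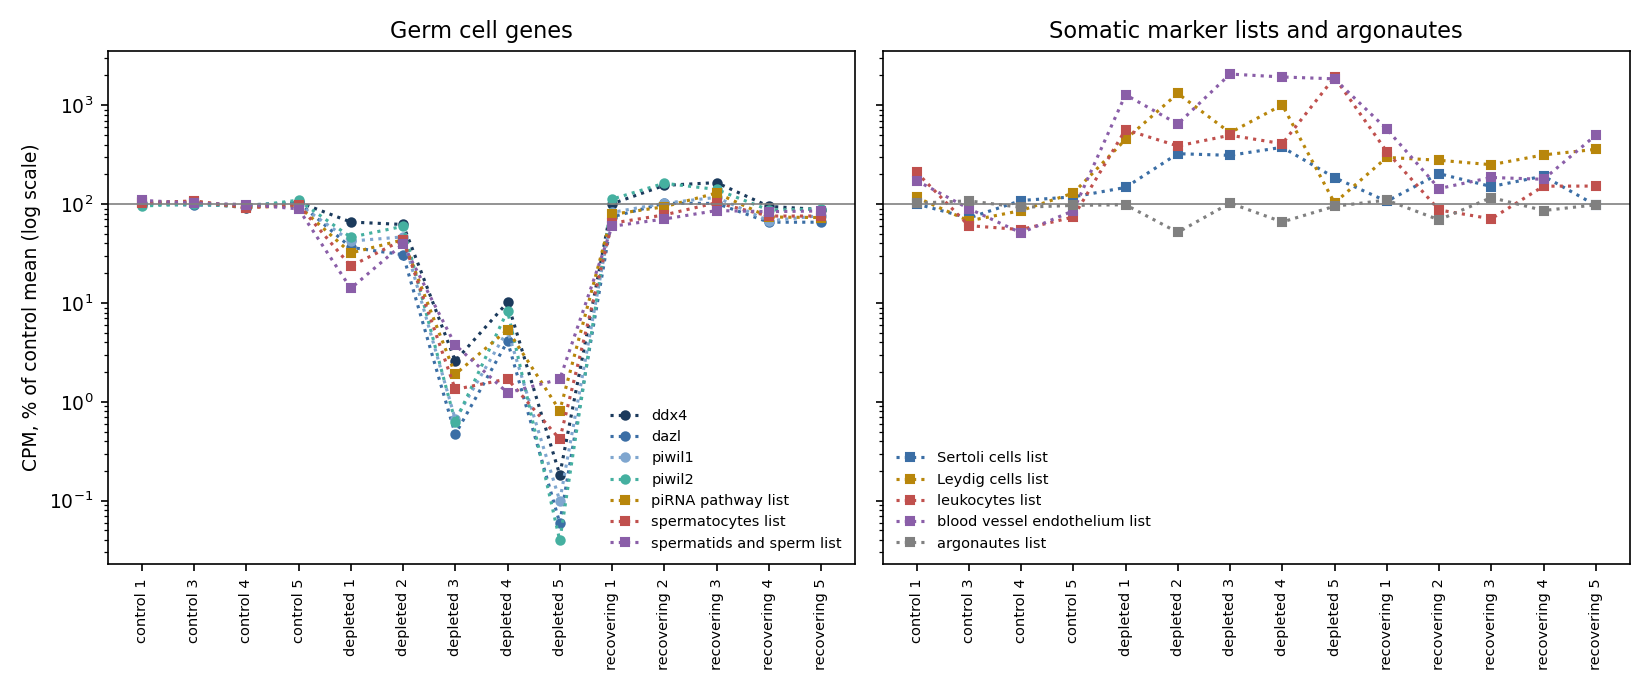
CPM as a percent of the control mean, on a log axis, in each library, for the 4 abundant germline genes and 3 germ cell lists (left) and for somatic marker lists and the Argonaute genes (right); lists are summed over their genes, and dotted lines only join points of a series. Depleted replicates 3, 4 and 5 lie lowest on the left, down to 0.0397% for piwil2, while the somatic lists lie at or above 100% in every depleted testis.

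The genes most like each of the abundant germline genes over the 14 libraries included other members of the set. Among 15270 other genes with a mean of at least 5 CPM, dazl was nearest to piwil1 (Pearson's r of log2 CPM 0.999), smc1b (0.998) and rnf17 (0.998). piwil1 was nearest to dazl, smc1b (0.998) and rnf17 (0.998). smc1b encodes a meiotic cohesin and rnf17 a Tudor domain protein. ddx4 was nearest to piwil2 (0.995), csnk2a3 (0.993) and piwil1 (0.992), and piwil2 to piwil1 (0.997), the unnamed ENSDARG00000097898 (0.995) and ddx4. An r over 0.95 was reached with 195 genes for ddx4, 373 for dazl, 320 for piwil1, 189 for piwil2 and 0 for nanos3. nanos3 was nearest to mppe1 (0.937), hip1ra (0.932) and inpp5j (0.932), with few counts behind its own values.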

How the data were processed

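The deposited values are raw counts, 1 whole number per Ensembl gene and library, as the values show. Per the submitters' processing notes, FastQC 0.10.1, TopHat2 2.0.5, SAMtools 0.1.18, HTSeq, DESeq and the genome build Zv9 were used; strand, multi-mapping and filter settings are not given in the sources used here, so reads shared by the Piwi paralogs may have been split in an unknown way. Per the labels' protocols, libraries were made from 2 µg of total RNA with an Illumina TruSeq kit.

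The test was that of edgeR 4.0.16 (R 4.3.3). Genes passed filterByExpr on the 3 groups, and TMM factors came from all 14 libraries. Each comparison was fitted on its own 2 groups with the quasi-likelihood F-test, because the common dispersion was 0.0848 in control, 0.417 in depleted and 0.153 in recovering testes. Each fit still shared 1 dispersion per gene between its 2 groups. The unequal spread within the comparisons with depleted testes was therefore not modelled. The p-values were adjusted by Benjamini-Hochberg over all 21277 genes, with calls under 0.05. The standard error is the size of the log2 fold change over the square root of F. Ratios used counts plus 0.5 on the log2 scale and exact permutation over samples. limma 3.58.1 (voom) and DESeq2 1.42.0 were alternatives. Scripts were tested on simulated data.

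Symbols came from a table that names 21948 of the 33752 identifiers; 77 of 109 list symbols matched 1 identifier, without regard to case, and the others were not used. The 5 genes and the lists were chosen with earlier results of these data known. Genes named are the 5, the up to 4 most abundant tested genes of a list, genes of a count of 5 or fewer, and the 3 most correlated with each of the 5; others were picked for their role after their values were seen. Same-group libraries differed by far more than sampling noise (chi-square per degree of freedom 13.9 to 111 over 26 pairs).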

Additional observations from a re-analysis of the deposited data

Results flagged for a closer look

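Of 27 sets of values (each of the 5 genes and 4 ratios in each group) examined with Dixon's test, 1 had an extreme sample, and about 1.35 are due to chance alone. nanos3 stood at 7.14 counts per 100 ddx4 counts in depleted replicate 5, against 0.442 in the next depleted testis, so that the gap was 0.938 of the whole range (limit 0.710). The value is 1 nanos3 count over 14 ddx4 counts, with an interval of 0.169 to 46.9.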

How the results depend on the processing

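The count of the 5 genes called in depleted against control testes, 1 in the main analysis, was 2 in 1 fit of all 14 samples, 3 with DESeq2, 5 with limma-voom, 0 without a filter, 0 in libraries under 20000000 counts and 0 at an adjusted p under 0.01. The fit of all samples, DESeq2 and limma-voom called 14107, 14216 and 14680 of the 21277 tested genes there. For recovering against depleted testes the count of the 5 genes was 0, but 1 in the fit of all samples and 5 with DESeq2 and with limma-voom. In that comparison the same settings called 12599, 12567 and 13210 of all tested genes. Leaving out 1 replicate gave 0 to 1 of the 5 genes in both comparisons. Over all genes, an adjusted p under 0.01 left 7956, 4726 and 17 genes in the 3 comparisons (12696, 10675 and 1113 in the main analysis). Recovering against control testes gave 113 in the fit of all samples, 672 without a filter, 3382 with DESeq2, 2095 with limma-voom and 5 to 2674 with 1 replicate left out. With total counts the median gene moved to -0.34 in depleted against control testes and to 0.26 in recovering against depleted testes, and no log2 fold change of the 5 genes changed sign under any alternative run.

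The labels do not say that equal replicate numbers are pairs. Deviations from group means correlated at -0.159 to 0.241 over 13 same-numbered pairs, and 3 of 14 samples correlated best with their own number. With the replicate block, 2 of the 5 genes (dazl and piwil1) were called in depleted against control testes and nanos3 was not. The block also gave 15 piRNA pathway, 6 germ plasm and 12 spermatocyte genes called there, 10, 4 and 7 in recovering against depleted testes, and no call of spata4 in recovering against control testes.

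Ratios to ddx4 missed the adjusted threshold in smaller sets, where few permutations exist. In libraries under 20000000 counts the differences for dazl were -1.39, 0.89 and -0.50 (depleted against control, recovering against depleted, recovering against control), those for piwil1 -0.99 and -0.42 (depleted and recovering against control), and piwil2 turned to 0.0528 in recovering against control testes. With at least 20 counts of both genes, chosen after seeing the data, dazl gave -1.06, 0.52 and -0.54 and piwil1 -0.99 and -0.42. Leaving out 1 replicate gave, in the same 3 comparisons, -1.52 to -1.13, 0.59 to 0.98 and -0.57 to -0.50 for dazl, -1.11 to -0.72, 0.30 to 0.69 and -0.47 to -0.37 for piwil1, and -1.12 to -0.63, 0.61 to 1.09 and -0.0654 to 0.0305 for piwil2 (above 0 without control replicate 5 or recovering replicate 3 or 4). nanos3 in recovering against depleted testes passed at -2.64 with a pseudocount of 1. With dazl as the denominator piwil1 gave 0.42, -0.30 and 0.12, piwil2 0.48 and 0.52 (depleted and recovering against control) and nanos3 -3.14 in recovering against depleted testes; a different denominator is a different quantity. Depth limits nanos3 throughout and every value of depleted replicate 5.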

Other observations

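Depleted replicates 3 and 4 stood in another order by the summed genes of spermatids and sperm than by ddx4, piwil2 and the spermatocyte list. The spermatocyte list stood at 1.70% of the control mean in replicate 4 and 1.34% in replicate 3. Depleted replicate 4 held 10.1% of the control mean of ddx4 and 8.32% of piwil2, against 2.59% and 0.628% in replicate 3. The summed genes of spermatids and sperm had the reverse order, at 1.23% in replicate 4 and 3.76% in replicate 3. In replicates 1 and 2 the spermatid sums were 14.1% and 39.6%, while ddx4 was at 65.9% and 62.2%. These values describe single testes and were noticed after the data were seen.

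The 56 genes with a lower ratio to ddx4 in every depleted than in every control testis, 0.263% of those tested, included 4 of the 12 tested spermatocyte genes (smc1b, hormad1, sycp2 and tex11), 2 of the 15 tested piRNA pathway genes (tdrd6 and tdrd7a) and 1 of the 8 tested spermatid genes (spaca6). Genes of low level could hardly be among the 56, as described with the ratios to ddx4 above.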
